A study of Mus musculus with 10 samples.

Results

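Slc25 genes encode the carrier family of the inner mitochondrial membrane, and 47 of the 54343 genes in the deposited expression table carry a symbol made of Slc25a and a number. These 47 were taken as the members and sorted by the substrate that each is known to move. RNA from 2 cultured mouse lines was sequenced as polyA-selected libraries made with a strand-specific kit, 5 libraries from MC38 and 5 from MC38.T4. MC38 is the parental line, bought from a vendor and labelled wild type; the labels call it colon cancer in the treatment text and melanoma in the tissue field. MC38.T4 descends from MC38 cells transfected with a human mesothelin plasmid (huMSLN.pcDNA3.1) and sorted as single clones (MC38.huMSLN.34), which were grown as tumours in C57/BL6 mice. The tumours were taken out after about 25 days, their cells were passaged for 10 generations in culture, and 1 clone with low mesothelin became the MC38.T4 line, whose genotype field reads low mesothelin expression. Both lines were therefore compared in culture, and MC38.T4 is 1 clone, so clonal origin, transfection and passage in mice cannot be told apart in this design. Whether the 5 libraries per line were separate cultures is not in the labels, so the p-values below measure the spread between these libraries, which may be technical.

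Carriers of this family are built from a repeated module and exchange solutes between the cytosol and the mitochondrial matrix. They bring ADP and phosphate in and let ATP out, move citrate, malate, oxoglutarate, aspartate and glutamate between compartments, and supply the matrix with coenzymes, nucleotides, iron and glutathione. Nearly all are made in the cytosol and inserted into the inner membrane by the TIM22 machinery. In proliferating tumour cells the citrate carrier is known for supplying the cytosol with the carbon used for fatty acid and sterol synthesis, and the aspartate/glutamate and oxoglutarate carriers for the malate-aspartate shuttle, which brings reducing equivalents from cytosolic NADH into the matrix.

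Values are FPKM, fragments scaled to gene length and library total, so levels of different genes can be compared per length. FPKM summed to between 442183 and 484460 per library. No read totals were at hand, and the spacing of the lowest values put the depth of the libraries between 0.874 and 1.14 times that of MC38 replicate 1. Of the libraries, MC38 replicate 1 stood apart by its low FPKM sum and MC38.T4 replicate 4 by its nuclear RNA Malat1, at 125 FPKM where its group otherwise spanned 53.1 to 75.9. With both left out 15 carriers rose and 16 fell, and no call changed among the carriers that then still met the filter (Slc25a23 and Slc25a42 did not). Mitochondrially encoded transcripts took 3.76% to 6.05% of FPKM in MC38 libraries and 4.87% to 6.85% in MC38.T4 libraries. None of 9 epithelial and intestinal markers reached the expression filter, and Epcam and Cdx2 were at or near 0. Their summed level was 0.0567 to 0.146 FPKM in MC38 and 1.10 to 1.42 FPKM in MC38.T4, most of it Cdh1, E-cadherin (0.0212 ± 0.0080 and 1.00 ± 0.070 FPKM). Of 7 melanocyte markers 1 reached the filter, and only through MC38.T4 (Mitf, 0.781 ± 0.14 and 1.74 ± 0.096 FPKM), with Tyr at 0. Of 10 fibroblast and pericyte markers 5 were tested, of which Col1a2, Pdgfrb and Acta2 met the filter only through MC38.T4 and had to be higher there. The others, Dcn and Pdgfra, rose from 16.8 ± 1.6 to 58.1 ± 3.7 FPKM and from 12.4 ± 0.60 to 24.5 ± 0.46 FPKM. The summed level of the 10 was 28.2 to 31.6 FPKM in MC38 and 103 to 112 FPKM in MC38.T4, while Thy1 was listed at 0 in every library. No lymphocyte or endothelial marker reached the filter (endothelial sum 0.441 to 0.565 and 0.920 to 1.18 FPKM), and 1 of 8 myeloid markers did (Cd68, lower in MC38.T4), with Cd3e, Cd8a and Adgre1 at 0. The part of these marker genes in the results below was not tested.

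All tested carriers of ADP/ATP and phosphate, of carboxylates and of aspartate or glutamate were higher in MC38.T4. Of 9 tested carriers of cofactors and nucleotides 7 were lower. Carriers of ATP-Mg/phosphate and of other amino acids, kept as separate classes, went both ways. The classes were drawn up with earlier results of these data known, so this split is a description and not a test of a substrate pattern. A gene was tested when its FPKM was at least 1 in at least 5 libraries, which 34 of the 47 members met. Differences are given as MC38.T4 minus MC38 in log2(FPKM + 1) and were tested with limma and adjusted over all 11110 tested genes by the Benjamini-Hochberg method at 0.05. Of the 34 members 17 rose (43.1% of all tested genes did), 16 fell (42.9% of all tested genes) and 1 did not pass. Either direction was called for 97.1% of tested members and 86.0% of all tested genes, so a call alone says little about a carrier here. Slc25a23 and Slc25a42 met the filter only through MC38.T4 and had to be higher there; without them 15 of 32 rose and 16 fell. The libraries of the lines did not overlap for 32 of the 34 members (94.1%, against 77.4% of all tested genes), the exceptions being Slc25a17 and Slc25a45. A log2 difference of at least 1 was found for 6 members, all higher in MC38.T4 (17.6%, against 10.0% of all tested genes), and for 0 members lower in MC38.T4 (against 7.14%). The median log2 difference was 0.04 over the tested members and 0.00 over all tested genes, and the median size regardless of direction was 0.53 and 0.47. Each non-overlapping member had an exact permutation p of 0.00794 (two-sided, n = 5 per line), the smallest that the test can give. These are bulk samples, in which fewer cells of a kind and less RNA per cell cannot be told apart.

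**Figure D1:**
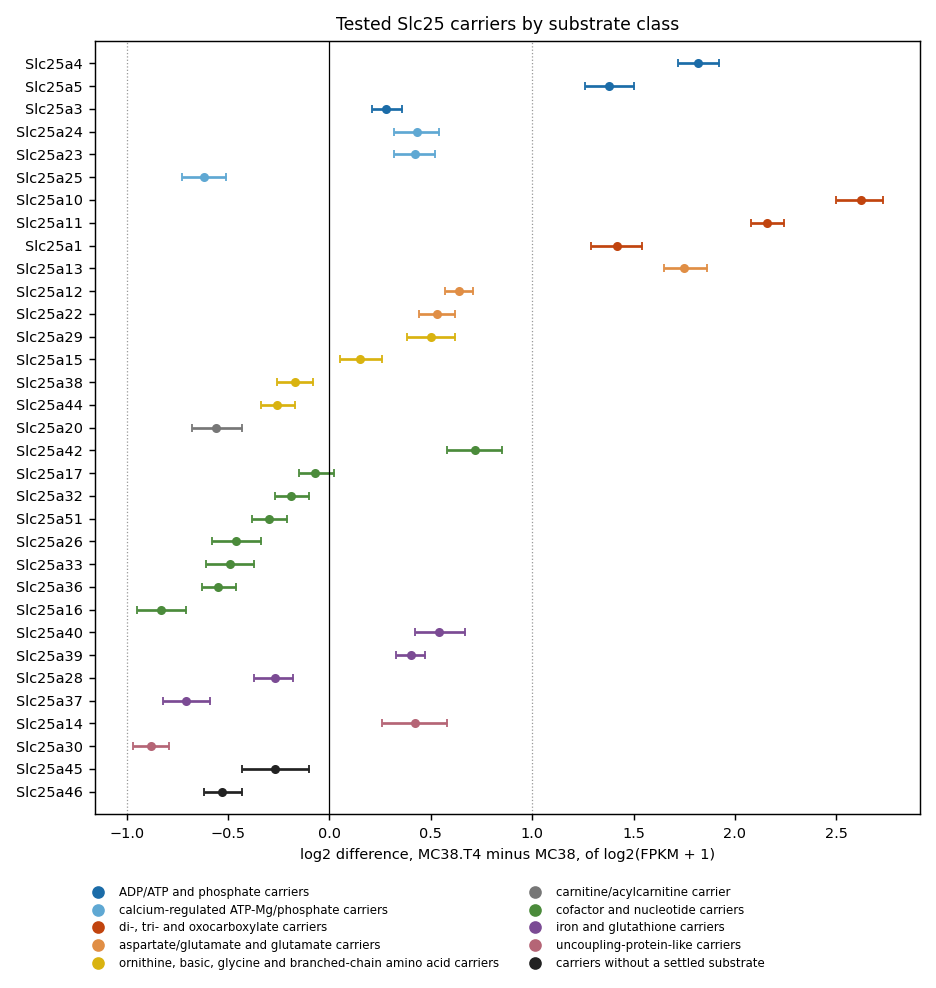
Difference in log2(FPKM + 1), MC38.T4 minus MC38, of 33 of the 34 tested carriers, with bars for the 95% interval from limma and colours for the substrate class; dotted lines mark a difference of 1. The carboxylate carriers and the ADP/ATP carriers lie to the right of 1 and all but 1 of the carriers of cofactors and nucleotides drawn here lie left of 0.

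Summed over all 47 members, the family's level was 1115 ± 14 FPKM in MC38 and 1596 ± 38 FPKM in MC38.T4 (SD, n = 5 each), and it took 0.240% ± 0.0043 and 0.332% ± 0.0085 of all FPKM. The lowest MC38.T4 library (1548 FPKM) lay above the highest MC38 library (1127 FPKM). Most of this difference sat in the genes for ADP/ATP carriers, since without Slc25a4 and Slc25a5 the sums were 950.3 ± 5.9 and 1105 ± 16 FPKM. The phosphate carrier Slc25a3 was the most abundant member in both lines. Behind it MC38 ranked Slc25a39, Slc25a5, Slc25a24 and Slc25a4, and MC38.T4 ranked Slc25a5, Slc25a4, Slc25a39 and Slc25a24. These 5 genes held 62.4% ± 0.84 of the family sum in MC38 and 72.7% ± 0.70 in MC38.T4. Slc25a5 stood above Slc25a4 in each MC38.T4 library, although their ranges over these libraries overlapped (228 to 282 and 218 to 239 FPKM). Between libraries of 1 line the coefficient of variation of a tested member had a median of 6.30% in MC38 and 5.94% in MC38.T4.

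**Figure D2:**
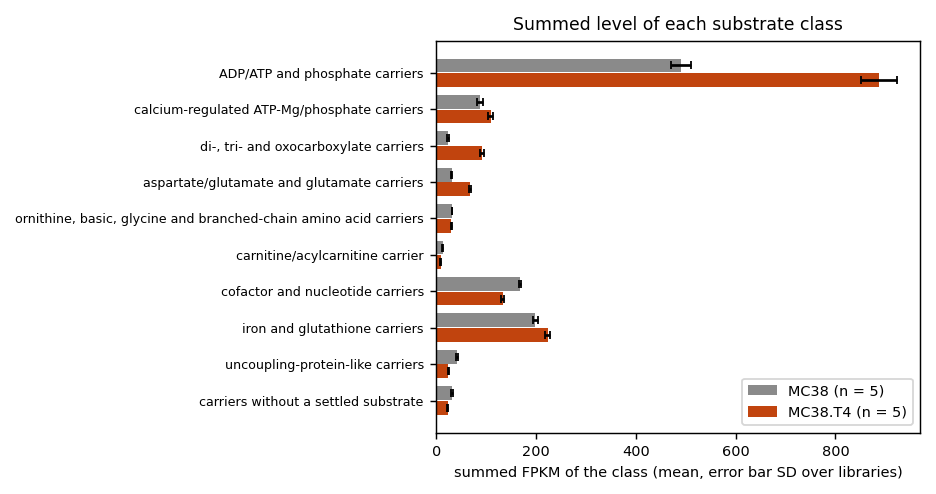
Summed FPKM of each substrate class, with bars for the mean of 5 libraries and error bars for the SD. The ADP/ATP and phosphate class goes from 490.3 to 888 FPKM and the carboxylate class from 23.3 to 90.9 FPKM, while the class of cofactor and nucleotide carriers goes from 168 to 133 FPKM.

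All 3 tested carboxylate carriers rose, each by at least 1 on the log2 scale. Slc25a10, the dicarboxylate carrier, which exchanges malate and succinate for phosphate, stood at 1.58, 1.74, 1.93, 1.52 and 1.82 FPKM in the MC38 libraries and at 16.1, 17, 14.4, 14.8 and 16.1 FPKM in the MC38.T4 libraries. This was the largest difference among the tested carriers, 9.12-fold in mean FPKM (log2 difference 2.62, SE 0.06, limma adjusted p = 3.52e-15), and it moved the gene from rank 31 to rank 18 of the family. Slc25a11, the oxoglutarate/malate carrier, had 6.97, 7.10, 6.81, 6.72 and 6.93 FPKM in MC38 and 32.7, 36.9, 33.5, 34.6 and 34.2 FPKM in MC38.T4. Its level was 4.98-fold higher (log2 difference 2.16, SE 0.04, limma adjusted p = 4.18e-16). It overlaps Rnf167 on the opposite strand in GENCODE M21, and Rnf167 stood at 7.66 FPKM in MC38 and 7.67 FPKM in MC38.T4; whether the authors' counting used the strand is not given. Slc25a1, the citrate carrier, had 13, 14.7, 15.3, 14.3 and 16.0 FPKM in MC38 and 38.6, 39.5, 40.2, 46.4 and 39.4 FPKM in MC38.T4, so that MC38.T4 replicate 4 stood above its group. It was 2.78-fold higher (log2 difference 1.42, SE 0.06, limma adjusted p = 4.56e-12). Slc25a21, the oxoadipate carrier, lay below the filter at 0.0434 ± 0.019 and 0.0133 ± 0.013 FPKM. The class sum went from 23.3 ± 1.3 to 90.9 ± 3.6 FPKM. A list of 7 genes covered citrate metabolism, the use of exported citrate and, with Acss2, the making of acetyl-CoA from acetate. All 7 were tested, and 6 rose and 1 fell (median log2 difference 0.66). Idh2, the mitochondrial NADP-linked isocitrate dehydrogenase, went from 21.0 ± 1.3 to 59.4 ± 3.0 FPKM and its cytosolic relative Idh1 from 6.10 ± 0.23 to 16.3 ± 0.58, while Cs, citrate synthase, fell from 142 ± 4.4 to 124 ± 2.1.

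ADP/ATP and phosphate carriers rose in all 3 tested cases. Slc25a4, an adenine nucleotide translocase typical of heart and muscle, stood at 57.1, 65.6, 62.6, 66.6 and 66.6 FPKM in MC38 and at 239, 239, 218, 221 and 221 FPKM in MC38.T4. That is 3.58-fold in mean FPKM (log2 difference 1.82, SE 0.05, limma adjusted p = 2.17e-14). Slc25a5, the translocase common in proliferating cells, had 92.9, 105, 104, 98.0 and 104 FPKM in MC38 and 282, 282, 265, 262 and 228 FPKM in MC38.T4, with MC38.T4 replicate 5 the lowest of its group. It was 2.62-fold higher (log2 difference 1.38, SE 0.06, limma adjusted p = 5.50e-12). The smaller rise of Slc25a3, the phosphate carrier that feeds ATP synthase, was from 306, 333, 337, 325 and 329 FPKM to 396, 410.0, 396, 388 and 394 FPKM (log2 difference 0.28, SE 0.03, limma adjusted p = 1.87e-06). The testis-type translocase Slc25a31 was listed at 0 in 7 of the 10 libraries and reached 0.0223 FPKM at most. Slc25a4 and Slc25a5 are close relatives and how reads shared between them were counted is not given; the pseudogene Slc25a5-ps was listed at 0 in every library. The other family members that carry no Slc25a number gave 2 tested genes, and both rose. Mtch1, an outer membrane relative of the carriers, went from 39.4 ± 2.2 to 104 ± 4.1 FPKM and Mtch2, an insertase of the outer membrane, from 40.5 ± 1.5 to 51.7 ± 2.6, while the uncoupling protein genes Ucp1, Ucp2 and Ucp3 lay below the filter.

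Aspartate/glutamate and glutamate carriers rose in all 3 tested cases as well. Slc25a13, citrin, which exports aspartate for glutamate, had 10.8, 9.30, 9.90, 9.78 and 9.26 FPKM in MC38 and 36.9, 36.5, 37.3, 32.1 and 34.2 FPKM in MC38.T4. It was 3.61-fold higher (log2 difference 1.75, SE 0.05, limma adjusted p = 6.05e-14). Slc25a12, aralar, the isoform prominent in brain and muscle, went from 11.7, 11.8, 11.2, 11.1 and 11.1 FPKM to 18.3, 18.4, 18.3, 18.0 and 18.4 FPKM (log2 difference 0.64, SE 0.03, limma adjusted p = 4.61e-11). The MC38.T4 values of Slc25a12 were the least variable of any tested carrier in that line (coefficient of variation 0.806%). Slc25a22, which imports glutamate with a proton, stood at 8.81, 8.99, 10.1, 9.82 and 9.85 FPKM in MC38 and 14.1, 14.0, 13.7, 14.1 and 14.8 FPKM in MC38.T4 (log2 difference 0.53, SE 0.04, limma adjusted p = 1.10e-08). Slc25a18, its relative, did not exceed 0.0460 FPKM in any library. Of 7 enzymes of the malate-aspartate shuttle and of glutamate use, 3 rose, 2 fell and 2 did not pass (median log2 difference 0.06). Mdh1, the cytosolic malate dehydrogenase, rose from 32.4 ± 1.6 to 79.1 ± 2.5 FPKM and Gpt2, a mitochondrial alanine transaminase, from 25.8 ± 0.48 to 41.7 ± 4.3. Mdh2, the mitochondrial malate dehydrogenase, fell from 275 ± 13 to 229 ± 3.0 FPKM, and Got1, the cytosolic aspartate transaminase, from 95.3 ± 3.2 to 89.2 ± 4.9.

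**Figure D3:**
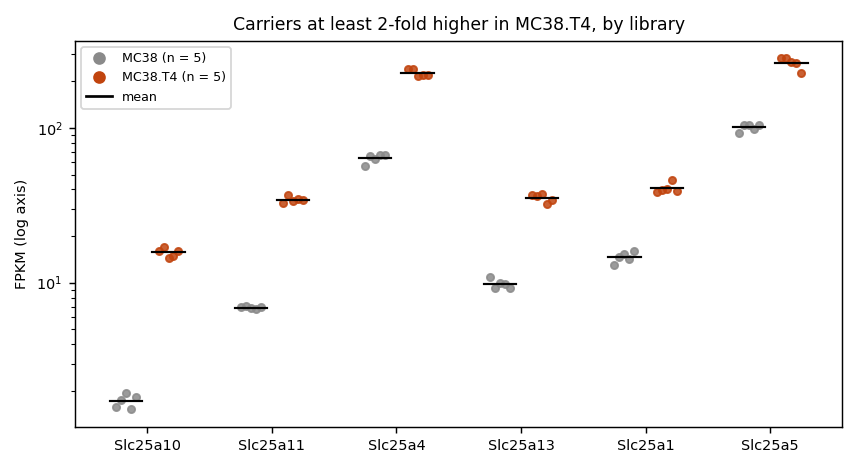
FPKM of the 6 carriers with a log2 difference of at least 1, on a log axis, with a point for each library and a black line for the mean of 5. In each gene the 5 MC38.T4 libraries lie above the 5 MC38 libraries, from Slc25a10 (1.72 to 15.7 FPKM on average) to Slc25a5 (101 to 264 FPKM).

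The starts of these 6 genes were read for common promoter letters, because the genes moved in 1 direction. RefSeq gave 1 window for each on GRCm38.p6, which is not the build named by the authors (GRCm39), and the 250 bases before the annotated start are used. The window is printed for the 4 genes in which it holds no exon of a protein-coding gene in GENCODE M21, 5′ to 3′ on the gene's strand, namely Slc25a10 (chr11:120491587-120491836, plus strand), Slc25a13 (chr6:6217174-6217423, minus), Slc25a1 (chr16:17928220-17928469, minus) and Slc25a5 (chrX:36795347-36795596, plus). Capitals mark CCAAT or its reverse ATTGG, the GC box GGGCGG or its reverse CCGCCC, and the E-box CACGTG.
Slc25a10: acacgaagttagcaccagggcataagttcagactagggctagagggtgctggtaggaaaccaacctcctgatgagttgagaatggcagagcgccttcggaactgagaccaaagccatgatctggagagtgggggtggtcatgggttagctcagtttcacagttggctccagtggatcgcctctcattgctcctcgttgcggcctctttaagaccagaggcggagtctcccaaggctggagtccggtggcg
Slc25a13: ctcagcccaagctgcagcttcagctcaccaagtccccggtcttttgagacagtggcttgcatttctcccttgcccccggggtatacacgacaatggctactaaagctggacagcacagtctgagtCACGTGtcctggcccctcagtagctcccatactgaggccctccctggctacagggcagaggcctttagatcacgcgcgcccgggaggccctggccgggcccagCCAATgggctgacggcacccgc
Slc25a1: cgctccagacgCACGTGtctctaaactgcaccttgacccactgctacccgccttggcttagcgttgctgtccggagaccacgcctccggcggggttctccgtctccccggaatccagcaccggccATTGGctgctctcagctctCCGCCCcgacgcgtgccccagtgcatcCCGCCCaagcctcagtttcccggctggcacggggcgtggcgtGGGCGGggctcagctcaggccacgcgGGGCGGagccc
Slc25a5: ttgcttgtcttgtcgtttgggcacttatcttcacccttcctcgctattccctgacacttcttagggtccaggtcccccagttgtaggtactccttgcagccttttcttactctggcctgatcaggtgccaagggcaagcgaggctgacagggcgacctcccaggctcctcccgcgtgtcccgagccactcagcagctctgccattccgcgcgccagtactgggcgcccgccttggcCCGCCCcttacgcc
CCAAT on either strand was found in 4 of the 6 windows and in 33.8% of 32851 promoter windows of the same length. GGGCGG on either strand was found in 3 of 6 (32.7% of all windows), and CACGTG in 2 of 6, Slc25a1 and Slc25a13 (6.0% of all windows). The TATA-box core TATAA was found in 0 of 6 (22.8% of all windows). Slc25a1 held 4 GC boxes, and Slc25a10, the gene with the largest difference, held none of these letters. Over the 27 tested members with a RefSeq window, 14 held CCAAT, 21 GGGCGG, 6 CACGTG and 1 TATAA. A member was counted here if any of its windows matched, while the shares of all windows are per window. The windows also include those of genes not tested here, so the counts and shares are not on the same base. Whether the 6 genes hold more of these letters than other tested genes was not tested. A match describes the letters and is not evidence of a bound factor.

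The calcium-regulated ATP-Mg/phosphate carriers, which set the adenine nucleotide pool of the matrix, went both ways. Slc25a24 had 84.0, 72.2, 69.9, 75.1 and 71.0 FPKM in MC38, with replicate 1 the highest, and 99.9, 99.7, 108, 93.0 and 101 FPKM in MC38.T4 (log2 difference 0.43, SE 0.05, limma adjusted p = 1.22e-06). Slc25a25, in contrast, went from 12.3, 12.3, 12.0, 10.9 and 11.6 FPKM to 7.07, 6.45, 7.52, 7.88 and 7.76 FPKM (log2 difference -0.62, SE 0.05, limma adjusted p = 1.99e-08). Naif1, on the opposite strand of Slc25a25, also stood lower in MC38.T4 (3.09 and 1.44 FPKM). Slc25a23 rose from 0.888 ± 0.057 to 1.53 ± 0.11 FPKM. Slc25a41 and Slc25a54 did not exceed 0.0407 and 0.0283 FPKM.

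Of the 10 carriers of cofactors and nucleotides, 7 fell, 1 rose, 1 did not pass and 1 lay below the filter. Slc25a16, linked to coenzyme A transport, fell from 10.9, 9.44, 9.38, 10.8 and 9.90 FPKM to 4.85, 5.46, 5.82, 4.82 and 5.18 FPKM, with no overlap between the lines (log2 difference -0.83, SE 0.06, limma adjusted p = 1.36e-09). Slc25a42, a carrier of coenzyme A and ADP, stood at 0.455, 0.381, 0.462, 0.447 and 0.602 FPKM in MC38 and at 1.33, 1.5, 1.22, 1.31 and 1.76 FPKM in MC38.T4. It was the 1 member of this class that rose, 3.03-fold in mean FPKM, although its log2 difference of 0.72 (SE 0.06) is held down by the pseudocount of 1. Slc25a33, which carries pyrimidine nucleotides, went from 22.6, 26.1, 24.3, 25.1 and 25.3 FPKM to 16.0, 18.0, 16.0, 19.7 and 17.1 FPKM (log2 difference -0.49, SE 0.06, limma adjusted p = 7.27e-07). Slc25a36, the other pyrimidine nucleotide carrier, went from 25.1, 24.3, 23.2, 25.2 and 22.8 FPKM to 15.6, 16.3, 17.4, 16.0 and 15.7 FPKM (log2 difference -0.55, SE 0.04, limma adjusted p = 5.15e-09). Both pyrimidine carriers were thus lower in every MC38.T4 library than in any MC38 library. Slc25a26, which imports S-adenosylmethionine, fell from 2.84 ± 0.18 to 1.81 ± 0.20 FPKM, while Lrig1 on the opposite strand stood at 31.8 and 55.5 FPKM. Slc25a51, the NAD carrier, fell from 41.3 ± 2.1 to 33.4 ± 1.5 FPKM and Slc25a32, which carries folate or FAD, from 11.1 ± 0.60 to 9.62 ± 0.22.

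Slc25a17, the peroxisomal carrier of coenzyme A and related cofactors and the most abundant gene of this class over both lines, was the tested member that did not pass. Its libraries overlapped, at 41.5, 44.3, 40.2, 39.0 and 41.7 FPKM in MC38 and 37.6, 39.7, 41.7, 38.1 and 39.7 FPKM in MC38.T4 (log2 difference -0.07, 95% interval -0.15 to 0.02, limma adjusted p = 0.118). Rescaling to TPM called it lower (limma adjusted p = 0.0172), as did a shift to equal medians (0.0301). Its adjusted p spanned 0.0172 to 0.296 in the 19 alternatives. The class sum fell from 168 ± 2.5 to 133 ± 3.4 FPKM, a fold of 1.27. Among 10 enzymes that make or use these cofactors, 4 rose, 4 fell and 2 did not pass (median log2 difference -0.01). Mat2a, which makes S-adenosylmethionine, fell from 349 ± 22 to 109.7 ± 4.6 FPKM and Coasy, the last enzyme of coenzyme A synthesis, from 28.3 ± 1.5 to 20.3 ± 0.64, while the pantothenate kinase genes Pank2 and Pank3 rose from 13.3 to 16.2 and from 18.0 to 21.3 FPKM. Pank1, a pantothenate kinase gene at a lower level, rose more (log2 difference 0.92). Of 8 genes for mitochondrial folate metabolism and glycine cleavage 6 were tested, of which 4 rose and 2 fell (median log2 difference 0.31). Mthfd1l rose from 21.6 ± 0.59 to 44.3 ± 1.9 FPKM and Mthfd2 from 66.7 ± 0.49 to 109.7 ± 4.5. Aldh1l2 fell from 108 ± 11 to 68.8 ± 2.1 FPKM and Gcsh, of glycine cleavage, from 71.7 ± 5.9 to 55.7 ± 3.3.

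Iron carriers fell and glutathione carriers rose. Slc25a37, mitoferrin-1, the iron importer prominent in erythroid cells, had 40.1, 37.3, 38.7, 38.4 and 40.5 FPKM in MC38 and 21.0, 21.9, 24.1, 26.0 and 25.0 FPKM in MC38.T4 (log2 difference -0.71, SE 0.05, limma adjusted p = 4.58e-09). Slc25a28, mitoferrin-2, the more widely expressed one, went from 22.9, 23.7, 24.6, 21.4 and 25.4 FPKM to 19.8, 20.2, 19.0, 18.1 and 19.6 FPKM (log2 difference -0.27, SE 0.05, limma adjusted p = 5.12e-05). Neither gene's libraries overlapped between the lines. Slc25a39, the glutathione importer, stood at 126, 131, 131, 129.8 and 136 FPKM in MC38 and at 170.0, 179, 167, 174 and 174 FPKM in MC38.T4 (log2 difference 0.40, SE 0.03, limma adjusted p = 1.24e-08). Slc25a40, its less abundant relative, went from 5.20, 4.69, 4.31, 4.22 and 4.42 FPKM to 7.23, 6.87, 7.90, 7.15 and 6.44 FPKM (log2 difference 0.54, SE 0.06, limma adjusted p = 3.09e-07). Of 13 genes for iron-sulfur clusters and haem 5 rose, 6 fell and 2 did not pass (median log2 difference -0.06). Fech, ferrochelatase, rose from 15.7 ± 0.81 to 26.8 ± 1.1 FPKM, while Cpox, coproporphyrinogen oxidase, fell from 62.3 ± 4.3 to 33.5 ± 1.0 and the cluster assembly factor Lyrm4 from 8.57 ± 0.21 to 4.86 ± 0.33. Of 7 genes listed for glutathione 4 rose, 2 fell and 1 did not pass (median log2 difference 0.29). Among the rises was Afg3l2, a mitochondrial protease and not a glutathione enzyme, whose log2 difference of 0.29 equals that median. Gsr, glutathione reductase, rose from 21.0 ± 0.63 to 51.6 ± 3.3 FPKM and Gclm from 26.7 ± 1.5 to 35.8 ± 2.3, while Gclc fell from 23.8 ± 0.92 to 17.5 ± 0.52 and the lipid peroxidase Gpx4 from 195 ± 19 to 151 ± 5.2.

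Of the 4 tested carriers of other amino acids 2 rose and 2 fell, and their summed level overlapped between the lines. Slc25a44, a carrier of branched-chain amino acids and the most abundant of them, had 14.8, 13.9, 14.1, 13.8 and 14.7 FPKM in MC38 and 11.6, 12.2, 11.7, 11.0 and 12.3 FPKM in MC38.T4 (log2 difference -0.26, SE 0.04, limma adjusted p = 1.64e-05). Slc25a38, which brings glycine in for haem synthesis, fell from 9.09 ± 0.25 to 8.0 ± 0.46 FPKM, and Slc25a29, a carrier of basic amino acids, rose from 2.36 ± 0.24 to 3.75 ± 0.21 (log2 difference 0.50, SE 0.06, limma adjusted p = 5.12e-07). Slc25a15, the ornithine carrier, rose from 5.23 ± 0.25 to 5.93 ± 0.46 FPKM (log2 difference 0.15, SE 0.05, limma adjusted p = 0.0109). TPM rescaling ended that call (limma adjusted p = 0.0710), as did quantile normalization (0.237). Its adjusted p spanned 0.00342 to 0.237 in the 19 alternatives. Slc25a2, an ornithine carrier below the filter, stood at 0.256 ± 0.11 and 0.0474 ± 0.023 FPKM, with no overlap. The class sums spanned 30.5 to 32.1 and 28.0 to 30.6 FPKM. Of the 6 tested genes for ornithine and proline 2 rose, 2 fell and 2 did not pass (median log2 difference -0.04). Pycr1, a proline synthesis enzyme of mitochondria, rose from 3.41 ± 0.38 to 18.8 ± 0.70 FPKM and Oat, ornithine aminotransferase, from 31.6 ± 1.6 to 61.9 ± 1.0.

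Slc25a20, the carnitine/acylcarnitine carrier that brings long-chain fatty acids to oxidation, fell. It had 12.4, 14.2, 11.7, 13.3 and 13.8 FPKM in MC38 and 8.08, 8.96, 8.49, 9.61 and 7.78 FPKM in MC38.T4, with no overlap (log2 difference -0.56, SE 0.06, limma adjusted p = 3.27e-07). Of 3 tested carnitine shuttle enzymes Cpt1a, the outer membrane step, fell from 16.1 ± 0.52 to 8.98 ± 0.25 FPKM, Cpt2, the inner membrane step, rose from 12.3 ± 0.28 to 15.7 ± 0.82, and 1 did not pass. Slc25a30, related to the uncoupling proteins, had 43.5, 38.6, 37.3, 40.9 and 38.1 FPKM in MC38 and 20.3, 21.5, 21.7, 21.6 and 20.5 FPKM in MC38.T4. This was the largest fall of the tested members on the log2 scale (-0.88, SE 0.04, limma adjusted p = 3.18e-11), 1.88-fold in mean FPKM, close to the 1.93-fold of Slc25a16. Slc25a14, of the same group, rose from 1.55 ± 0.28 to 2.41 ± 0.25 FPKM. Among carriers without a settled substrate Slc25a46, an outer membrane protein tied to mitochondrial shape, had 28.3, 26.4, 26.0, 28.9 and 24.8 FPKM in MC38 and 17.8, 18.2, 19.6, 18.1 and 17.9 FPKM in MC38.T4 (log2 difference -0.53, SE 0.04, limma adjusted p = 2.48e-08). Slc25a45 fell from 2.82 ± 0.38 to 2.17 ± 0.32 FPKM with overlapping libraries (limma adjusted p = 0.00505).

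Of the 13 members below the filter Slc25a48 was listed at 0 in every library. In the fit without a filter 3 of them were called higher (Slc25a35, Slc25a43 and Slc25a47), 3 lower (Slc25a2, Slc25a21 and Slc25a27) and 6 did not pass (Slc25a18, Slc25a31, Slc25a34, Slc25a41, Slc25a53 and Slc25a54). That fit called 47.8% of all genes, so these calls say little about the members. Of the called members Slc25a21, Slc25a43 and Slc25a47 had libraries that overlapped between the lines. All 13 members stayed low in level: Slc25a43 reached 1.28 FPKM and Slc25a27 0.977 FPKM at most. Slc25a35 stood at 0.469 ± 0.10 and 0.831 ± 0.061 FPKM, while Rangrf on its opposite strand stood at 28.9 and 18.3 FPKM.

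Some pairs of genes for like substrates shifted in balance and others did not. For 8 pairs the share of the first gene in the pair's summed FPKM was computed in each library, a value free of library scaling, and compared with the exact permutation test (two-sided, n = 5 per line), adjusted over the 8 pairs. Slc25a12 held 53.7% ± 1.5 of the aspartate/glutamate pair in MC38 and 34.1% ± 1.3 in MC38.T4, so that Slc25a13 went from 46.3% to 65.9% (exact adjusted p = 0.0127). By library the Slc25a12 share was 52.0%, 55.9%, 53.1%, 53.3% and 54.4% in MC38 and 33.2%, 33.5%, 32.9%, 36.0% and 35.0% in MC38.T4. Slc25a16 held 95.5% ± 0.78 of its pair with Slc25a42 in MC38 and 78.6% ± 2.8 in MC38.T4, as the more abundant gene fell and the scarce one rose. Slc25a42 met the expression filter only through MC38.T4 and had to be higher there. Slc25a4 held 38.7% ± 1.1 of the ADP/ATP pair and then 46.4% ± 1.6. For iron, Slc25a28 held 37.7% ± 1.5 and 45.1% ± 3.1, and for ATP-Mg/phosphate Slc25a24 held 86.3% ± 0.97 and 93.2% ± 0.67. These 5 pairs did not overlap between the lines and each had an exact p of 0.00794, the smallest the test can give (adjusted p = 0.0127). Taken singly, 77.4% of all tested genes did not overlap either. Pairs of other genes were not examined, so whether such shifts are particular to carriers was not tested. The pairs were chosen with earlier results of these data known, so their p-values are descriptive. Slc25a33 held 50.6% ± 2.0 and 51.7% ± 2.7 of the pyrimidine pair; its libraries overlapped, and the difference of 1.1 percentage points did not pass (exact adjusted p = 0.535). The glutathione pair stayed near 96.6% and 96.0% Slc25a39 (exact adjusted p = 0.0529), a difference that passed without MC38 replicate 1 (-0.729 points, exact adjusted p = 0.0212). Slc25a18 was too scarce for its share beside Slc25a22 to be read (0.113% and 0.125%, exact adjusted p = 0.921).

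**Figure D4:**
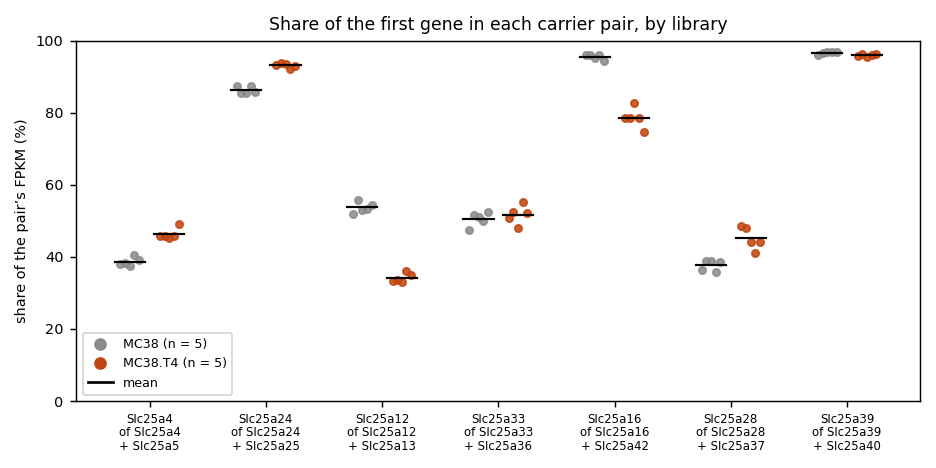
Share of the first-named gene in the summed FPKM of 7 carrier pairs, in percent, with a point for each library and a black line for the mean of 5; the pair with Slc25a18 is left out because that gene is near 0. The Slc25a12 share drops from 53.7% to 34.1% on average and the Slc25a16 share from 95.5% to 78.6%, while the libraries of the Slc25a33 pair overlap.

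Genes that insert or surround the carriers went both ways, as the carriers themselves did. Of all tested genes 43.1% were higher and 42.9% lower in MC38.T4. Of 15 genes of the carrier import route, all tested, 5 rose, 8 fell and 2 did not pass (median log2 difference -0.20). Timm10 and Timm9, small chaperones that escort carriers across the intermembrane space, both fell, Timm10 from 76.7 ± 5.0 to 22.2 ± 1.9 FPKM and Timm9 from 77.6 ± 3.8 to 32.2 ± 2.1. Timm10b, which docks them at the TIM22 complex, rose from 10.5 ± 1.6 to 19.3 ± 1.1 FPKM and Tomm40, the outer membrane pore, from 39.4 ± 1.6 to 68.7 ± 2.0. Of 10 genes for the pyruvate carrier, outer membrane channels and calcium uptake 5 rose, 3 fell and 2 did not pass (median log2 difference 0.26). The subunits of the mitochondrial pyruvate carrier moved apart, Mpc1 from 33.8 ± 3.0 to 56.9 ± 4.8 FPKM and Mpc2 from 49.3 ± 1.9 to 20.1 ± 1.7. Smdt1, a subunit of the calcium uniporter, rose from 38.2 ± 2.1 to 64.2 ± 2.3 FPKM. Of 8 regulators of mitochondrial biogenesis 7 were tested; 1 rose, 5 fell and 1 did not pass (median log2 difference -0.25). Tfb2m, a factor for mitochondrial transcription, fell from 29.0 ± 0.69 to 14.8 ± 1.1 FPKM and the transcription factor Nrf1 from 28.2 ± 0.81 to 15.3 ± 0.41, while Gabpa rose from 28.3 ± 3.3 to 38.5 ± 0.71.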

How the data were processed

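Polyadenylated RNA of 10 cultured samples (5 MC38, 5 MC38.T4) was sequenced. The authors deposited 1 table of FPKM with a gene symbol per row and a column per library, mapped to samples by the library names in the labels. The submitters' processing notes name GRCm39 and DESeq2, with no version or role; the aligner, counter, annotation and filters were not given in the sources used here. FPKM keeps no read counts, so no counting interval was attached and no count test was run.

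Values were tested as log2(FPKM + 1) with limma 3.58.1 in R 4.3.3 (trend and robust moderation, group term only, two-sided, Benjamini-Hochberg adjustment over 11110 genes). Tables, exact permutations and figures used Python 3.11.15, pandas 2.3.3, NumPy 2.4.6 and matplotlib 3.10.9. The fit was tested on simulated data with 200 altered genes among 11110 and independent noise. It recovered 70% of those set at a log2 change of 0.25 and 99% of those at 1. Of its calls 4.52% were false. In the real data 86.0% of tested genes were called, far more than were altered here, so these shares need not carry over.

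The members, classes, pairs and partner lists were chosen with earlier results of these data known, as were the promoter motifs. Libraries are given in full for members that changed at least 2-fold, the most abundant member of each class and the pairs; from each partner list at most 2 rises and 2 falls with a mean FPKM of at least 5 are named. Some genes that these rules pick, 1 carrier among them, are counted but not reported here. Alternatives were other pseudocounts, filters and scalings, plain eBayes, the replicate number as a block and leaving libraries out. Transcript overlaps come from GENCODE M21 (GRCm38) and promoters from RefSeq (GRCm38.p6), used for names and sequence only.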

Additional observations from a re-analysis of the deposited data

Results flagged for a closer look

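Of 86 sets of 5 libraries examined (the 34 tested carriers, the family sum and the 8 pair shares in each line), 4 held a library whose gap to its neighbour took most of the set's range; chance alone gives about 1 in 20. Slc25a51 stood at 45.0 FPKM in MC38 replicate 1, against 39.8 to 40.8 in the other MC38 libraries. Slc25a1 stood at 46.4 FPKM in MC38.T4 replicate 4, while its line otherwise spanned 38.6 to 40.2. Slc25a46 stood at 19.6 FPKM in MC38.T4 replicate 3, with the rest at 17.8 to 18.2. The share of Slc25a4 in the ADP/ATP pair was 49.2% in MC38.T4 replicate 5, against 45.2% to 45.9%, where Slc25a5 had its lowest value of that line (228 FPKM). Each of these libraries lay on the same side of every library of the other line as the rest of its group.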

How the results depend on the processing

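Over 19 alternative fits 32 of the 34 tested carriers kept their direction and their side of the threshold wherever they were tested; Slc25a15 and Slc25a17 did not, as given above. The number of carriers that rose lay between 13 and 20 and the number that fell between 14 and 19, the extremes coming from the fits with a minimum FPKM of 5 and with no filter, which test fewer and more carriers. Without a filter 47.8% of all genes passed, against 86.0%. The 6 carriers with a log2 difference of at least 1 became 7 with a pseudocount of 0.1, where Slc25a42 reached 1.42. The replicate number as a block left 17 rises and 16 falls among the carriers and 85.8% of all genes called. Same-numbered libraries correlated at 0.135, 0.142, -0.128, -0.129 and 0.014 in their deviations, so no clear pairing by number was seen. MC38 replicates 1 and 2 matched the same-numbered MC38.T4 library best, and replicates 3, 4 and 5 did not. A shared batch was not tested. With 5 pairs the paired sign-flip test of the shares cannot pass: the differences of 7.7 (Slc25a4), 6.9 (Slc25a24), -19.6 (Slc25a12), -17.0 (Slc25a16) and 7.4 points (Slc25a28) had an exact adjusted p of 0.0833 in the block. On the log2 scale the pair of Slc25a18 and Slc25a22 differed by -0.52 (exact adjusted p = 0.0106), with Slc25a18 near 0 in both lines. Leaving out 1 library at a time, the glutathione pair differed by -0.729 to -0.444 points. Read totals are unknown, so how far depth limits the members near 0 could not be stated.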
